A study of Mus musculus with 2 samples.

Results

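Genes that mark microglia were followed in the prefrontal cortex (PFC) of mice exposed to chronic mild stress (CMS) and of control mice. The list held 9 genes, P2ry12, Tmem119, Cx3cr1, Csf1r, Aif1, Itgam, Cd68, Trem2 and Tyrobp, and was set by gene name, with earlier results of these data known. A probe could be named for 8 of the 9 genes, by 13 probes in all, among 27117 gene names for which the arrays gave a ratio. Array entries without a gene symbol counted as gene names of their own. For Cd68 no accession on the array was paired with that symbol in the gene table used, so it has no expression value here. All 13 probes were well above background in both pools, and none of them differed between the pools by 1.2-fold or more.

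Microglia are the resident macrophages of the brain. They depend on signalling through the receptor Csf1r, whose ligands are made by neurons and other brain cells, and they read neurons through the fractalkine receptor Cx3cr1 and the nucleotide receptor P2ry12. Tyrobp, also called DAP12, is an adaptor with which Trem2 and related receptors pass on signals from lipids and cell debris, and Itgam, Aif1 and Cd68 are used as general markers of microglia and other macrophages.

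Gene expression of the PFC came from 2 Agilent arrays read in one color, each with pooled RNA, of the C group on the first array and of the CMS group on the other. All animals were male C57Bl/6 N sea mice aged 9 to 10 weeks at the start, and no transgene or drug is named for either group. Mice of the CMS group were housed singly and met changing mild stressors over 4 weeks, among them restraint, forced swimming and foot shocks, whereas control mice were kept in groups with ordinary care, so housing and stressors cannot be told apart. Brains were taken on the day after the last stressor. The series' design text gives 7 mice per pool, and the study's methods give 10 mice per group for arrays and PCR together.

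With 1 pooled sample per group the spread between mice is unknown, and the groups could not be compared by a test. Errors from within the arrays are given in its place. The first is the error that the scanner software attached to each spot, given below as ±. It was not measured from repeated spots of the microglia probes. For their log2 ratios it was nearly the same throughout, from 0.20 to 0.25. The second is the SD between spots of the same probe, which was 0.13 for log2 ratios over 342 probes with several spots. Neither covers differences between animals, and each microglia probe had 1 spot per array.

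Values are processed signal intensities scaled to a mean of 2500 on each array, so that a ratio says how a gene moved against the average of the array. Spots well above background made up 65.2% of the C array and 65.9% of the CMS array, none was saturated, and the lowest scaled signal well above background was 17.8 and 17.6. Probes differ in how strongly they bind, so signals of different probes were not set against each other and the genes were not ranked by level. In RNA of whole tissue, fewer microglia and less RNA of these genes per cell cannot be told apart. All 7 neuron markers, among them Snap25 and Syt1, were well above background in both pools, which fits brain tissue but does not tell the cortex from other regions, with log2 ratios of CMS over control from -0.18 to 0.20.

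The sequences just before the start of 3 of the genes are shown as the regulatory letters of this list. Genes of macrophages are known to be controlled by ETS factors, above all by PU.1, the product of Spi1. The letters GAGGAA, the core of the PU-box, and GGAAGT, a core of ETS sites, were searched on both strands in the 250 bases before the start of each gene in the RefSeq promoter set of GRCm38.p6. Of the list, 6 genes were matched to it and searched. Each line below gives the last 100 bases before the start, 5′ to 3′ on the strand of the gene, with matches in capitals (TTCCTC is GAGGAA on the other strand).
Itgam, chr7:128062540-128062639, plus strand: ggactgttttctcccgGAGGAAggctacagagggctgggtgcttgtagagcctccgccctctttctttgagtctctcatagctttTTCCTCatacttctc
Trem2, chr17:48346301-48346400, plus strand: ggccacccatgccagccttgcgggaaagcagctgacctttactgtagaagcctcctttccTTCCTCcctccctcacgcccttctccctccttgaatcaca
P2ry12, chr3:59262986-59263085, minus strand: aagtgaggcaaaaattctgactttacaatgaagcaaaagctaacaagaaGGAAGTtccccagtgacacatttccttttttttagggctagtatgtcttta

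GAGGAA stood in the windows of 4 of the 6 genes, Itgam, Trem2, Aif1 and Cd68, and in 23.3% of all 32851 promoters of that set. Itgam held it at 84 bases and again at 15 bases before the start, Trem2 at 40, Aif1 at 7 and Cd68 at 225. GGAAGT stood in the window of P2ry12 alone, 51 bases before the start, and in 19.7% of all promoters, and Cx3cr1 held neither. These matches are letters in a window and were not measured as bound sites here. On the arrays, the probe for Spi1 itself was not well above background in either pool.

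The receptors of the list are given first. P2ry12 encodes the purinergic receptor by which microglial processes find sites of injury, and its transcript is a marker of resting microglia. Its probe (NM_027571) gave 832 ± 83.4 for C mice and 872 ± 87.3 for CMS mice. The log2 ratio was 0.07 with an error of 0.20, so the pools lay within each other's error.

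Cx3cr1, the receptor of fractalkine, was the gene with the highest ratio of the list. Its brighter probe (NM_009987) gave 6232 ± 623 for C mice and 6971 ± 697 for CMS mice, a log2 ratio of 0.16, which is 11.9% higher. The other Cx3cr1 probe gave 432 ± 43.4 and 517 ± 51.9, a log2 ratio of 0.26. Both probes were thus higher in the CMS pool, by more than the SD between spots, although the brighter probe was at or under that SD with median scaling (0.13) and under normexp background correction (0.11) and at -0.012 with no scaling. The second was the only one of the 13 probes whose ratio was larger than its own scanner error, which was 0.21. Neither reached 1.2-fold.

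Csf1r, the receptor for the growth factors Csf1 and Il34 without which microglia do not survive, was read by 3 probes of 1 accession (NM_001037859). The brightest gave 15856 ± 1586 for C mice and 16457 ± 1646 for CMS mice, a log2 ratio of 0.05. A second gave 1436 ± 144 and 1399 ± 140, a log2 ratio of -0.04. The third gave 451 ± 45.3 and 484 ± 48.5, a log2 ratio of 0.10. The signs of the 3 probes differed, and all lay within the SD between spots.

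Itgam encodes CD11b, the alpha chain of complement receptor 3, and was read by 3 probes of 2 accessions. The brightest (NM_001082960) gave 33158 ± 3316 for C mice and 34619 ± 3462 for CMS mice, a log2 ratio of 0.06. Another probe of that accession gave 117 ± 12.6 and 107 ± 11.7, with a log2 ratio of -0.13, and the probe of NM_008401 gave 67.2 ± 8.08 and 64.7 ± 7.89, with -0.06. The latter 2 were the probes of the list nearest to background, and their sign was opposite to that of the brightest.

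Trem2 is the lipid-sensing receptor that signals through Tyrobp, and the pair was read by 1 probe each. The Trem2 probe (NM_031254) gave 2546 ± 255 for C mice and 2595 ± 260 for CMS mice, a log2 ratio of 0.03. The Tyrobp probe (NM_011662) gave 2551 ± 255 and 2508 ± 251, a log2 ratio of -0.02, the lowest of the list. Receptor and adaptor thus differed between the pools by 1.90% and -1.69%.

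Tmem119, a membrane protein used to tell microglia from other macrophages, gave 1403 ± 140 for C mice and 1387 ± 139 for CMS mice (NM_146162), a log2 ratio of -0.02. Aif1, which encodes the cytoskeletal protein Iba1, gave 2391 ± 239 and 2359 ± 236 (NM_019467), a log2 ratio of -0.02. Both genes were lower in the CMS pool by less than their errors.

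**Figure D1:**
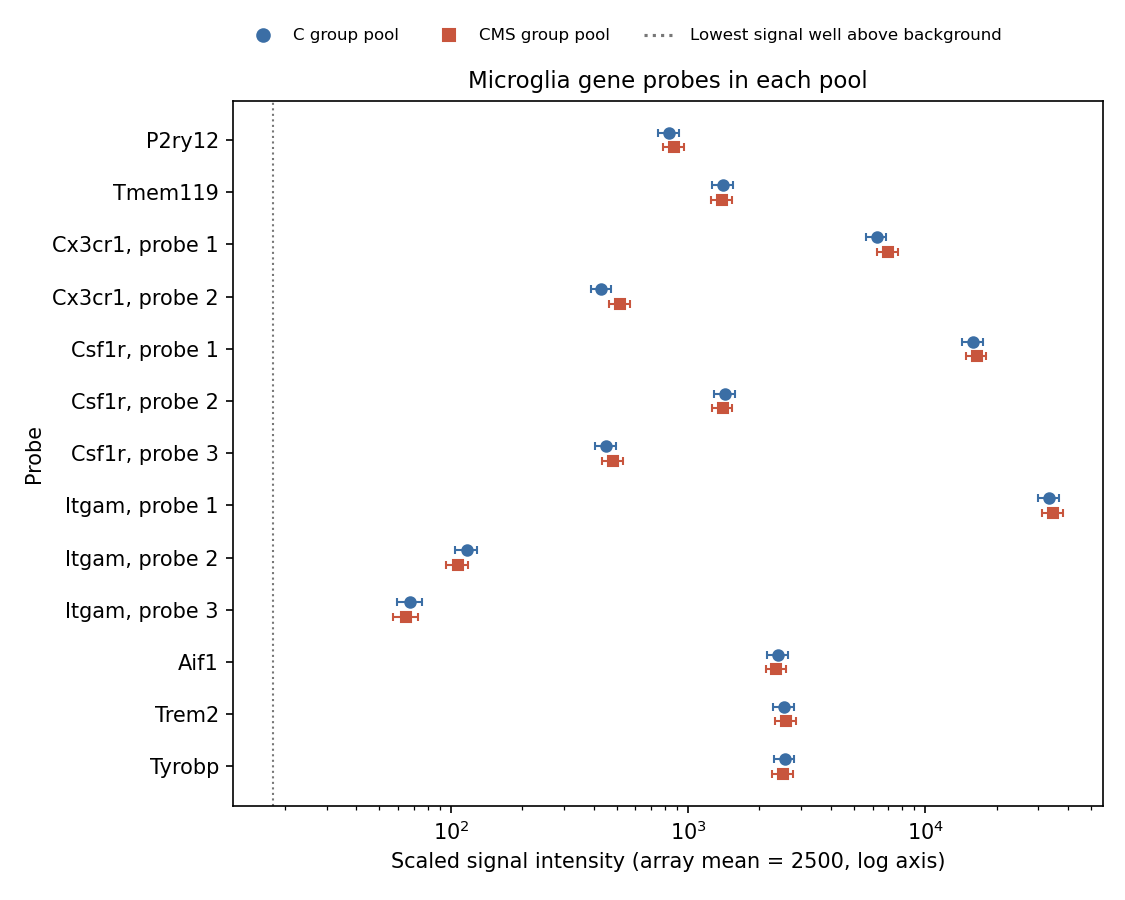
Scaled signal intensity (log axis, array mean 2500) of the 13 probes of 8 microglia genes in the C group pool (circles) and the CMS group pool (squares), with the scanner software's error of each spot as bars. The symbols of each pair lie close together at all signals, from 67.2 for the third Itgam probe to 33158 for the first in the C group, and all are to the right of the lowest signal well above background (dotted line).

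Over the 8 genes, each by its brightest probe, the median log2 ratio was 0.04, the lowest -0.02, the highest 0.16 and the SD 0.06. Ratios were above 0 for 5 genes and below 0 for 3. All of the 8 but Cx3cr1, 7 genes, stayed within 0.13 of 0, as did 11 of the 13 probes. No gene of the list passed 2-fold, the fold used by the study, against 2.58% of all gene names (1.99% higher and 0.59% lower). None was higher by more than 1.2-fold, against 9.53% of all gene names, and none was lower by more than 1.2-fold, against 10%. These shares include gene names dim in 1 pool, whereas the 8 genes were well above background in both. Where both pools had to be above background, 338 of 25453 gene names passed 2-fold.

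Across all gene names the median log2 ratio was -0.03, with quartiles of -0.13 and 0.07. All 8 microglia genes lay above that median and 1, Cx3cr1, above the upper quartile. The lowest, Tyrobp, had a ratio above that of 51.8% of all gene names and Cx3cr1 above that of 85.1%. The range spanned by the 8 genes held 33.3% of all gene names.

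**Figure D2:**
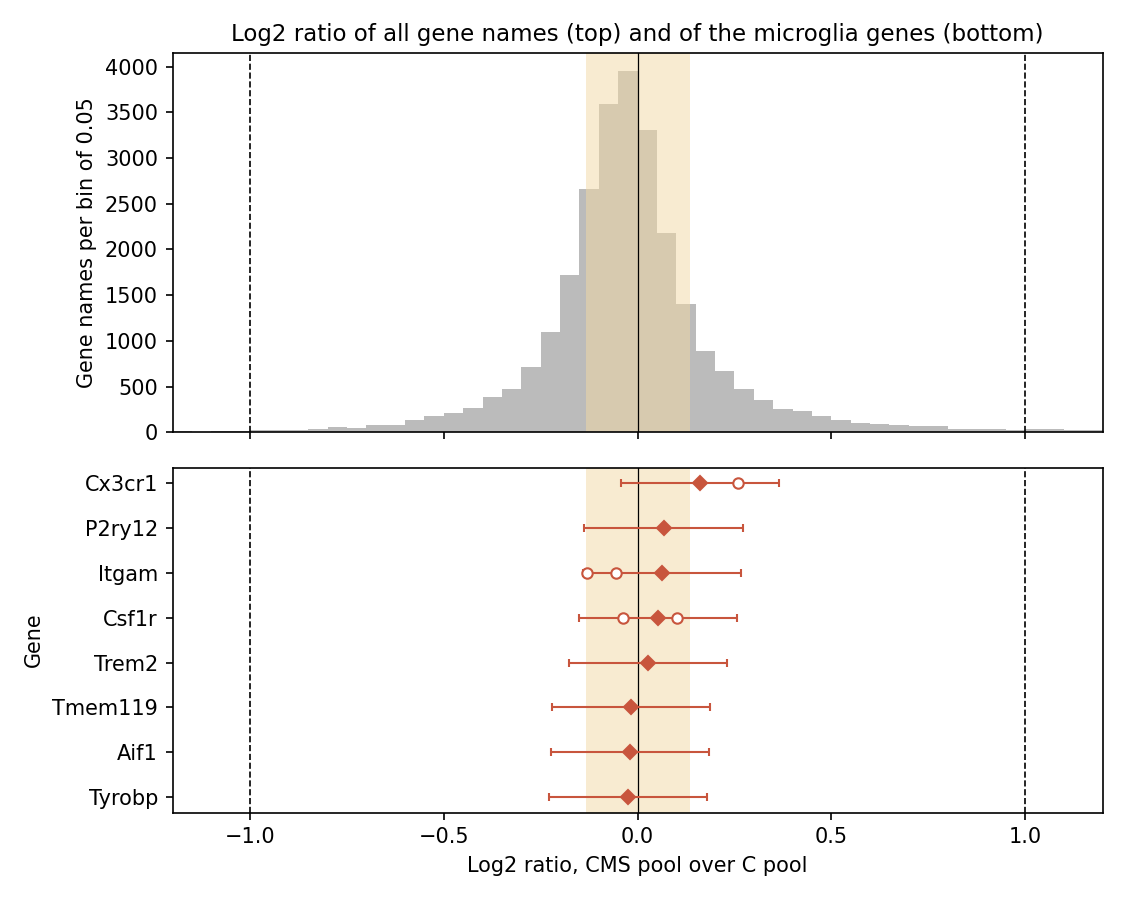
Top, number of gene names per bin of log2 ratio (CMS pool over C pool). Bottom, log2 ratio of each microglia gene by its brightest probe (filled diamonds, bars are the error from the scanner software) and by its other probes (open circles); the shaded band is the SD of 0.13 between spots of 1 probe and dashed lines mark 2-fold. The diamonds run from -0.02 for Tyrobp to 0.16 for Cx3cr1, and those of all genes but Cx3cr1 lie inside the band.

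The sign of these small ratios depended on how the arrays were scaled. P2ry12, Cx3cr1 and Csf1r stayed above 0 and Tyrobp below 0 in all 11 other settings that bring the arrays to a common level. Tmem119 and Aif1 turned above 0 in 3 of them, Itgam below 0 with the mean of its 3 probes, and Trem2 below 0 with median scaling. Several of the 11 settings could hardly move these signs. Those that differ only for dim probes left all 8 genes as reported. Keeping outlier spots changed almost nothing, and the deposited table nearly repeated the scaling by a trimmed mean. The mean of all probes could change only Cx3cr1, Csf1r and Itgam, the genes with several probes. With no scaling all 8 genes were lower in the CMS pool, from -0.20 for Tyrobp to -0.01 for Cx3cr1, while the median of all gene names moved from -0.03 to -0.20. The median of the 8 genes lay above the median of all gene names by 0.07 as reported, by 0.07 with no scaling, and by 0.04 with the mean of all probes.

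**Figure D3:**
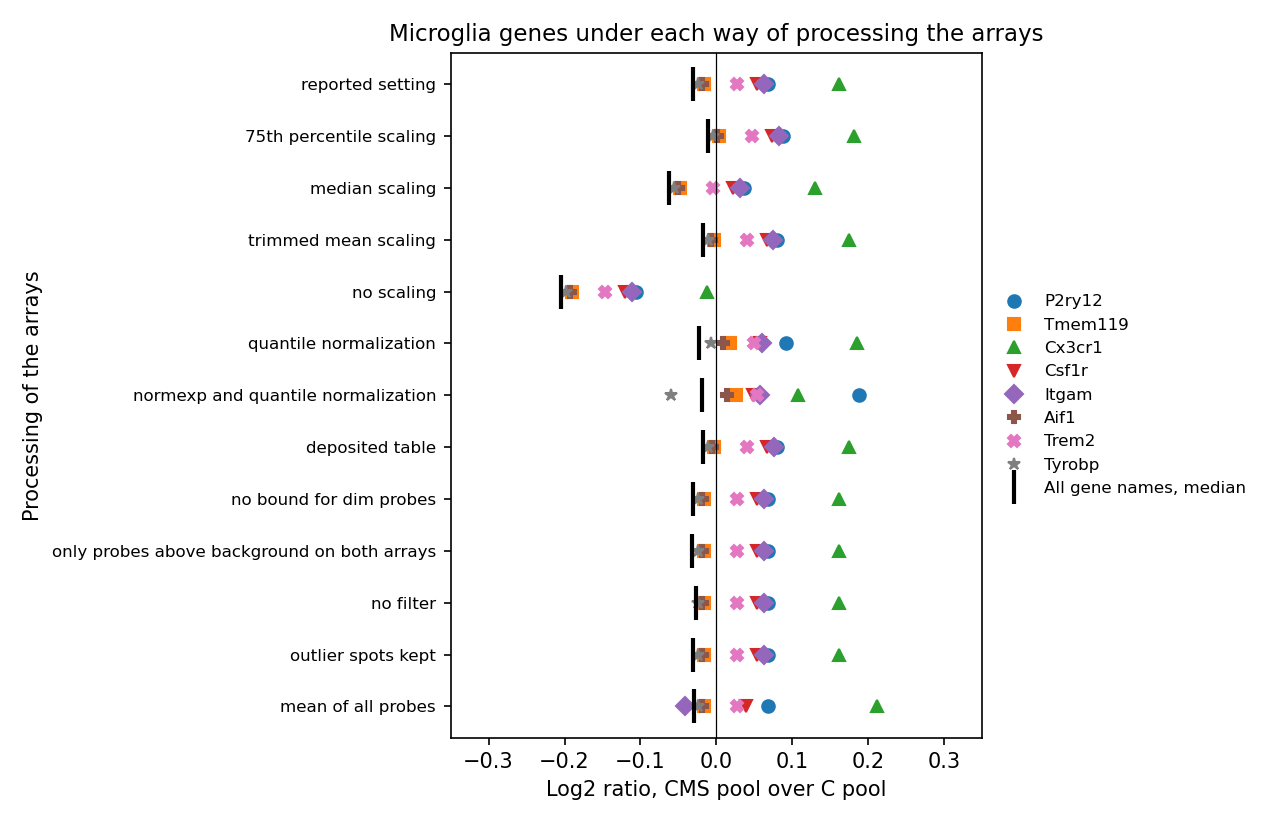
Log2 ratio of each microglia gene (CMS pool over C pool) in the reported setting and in 12 other ways of processing the arrays, with the median of all gene names as a bar. The genes other than Cx3cr1 keep near the bar in most rows, also with no scaling, where the bar lies at -0.20. Cx3cr1 stands apart from the bar, at 0.16 against -0.03 in the reported setting. It is the highest except under normexp background correction, where P2ry12 is at 0.19 and Cx3cr1 at 0.11.

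Macrophages and blood cells of other origin share several of these genes, so their own markers were read beside them. Kupffer cells, the macrophages of the liver, express Csf1r, Aif1 and Cd68 too, and 3 of their 6 markers were well above background in both pools. These 3, Cd5l, Marco and Folr2, had log2 ratios of 0.29, 0.41 and 0.45, all past 1.2-fold upward, against 9.53% of all gene names. Folr2 was dim, at 30.3 ± 4.77 for C mice and 41.5 ± 5.52 for CMS mice. Clec4f, a lectin of Kupffer cells, was not well above background for C mice and at least 2.20-fold higher for CMS mice. Vsig4, a complement receptor of these cells named after its value was seen, was likewise dim for C mice and at least 1.98-fold higher. Both passed the background filter through the CMS pool only, so their direction was set by the filter, and with them at their bounds the median was 0.45. Timd4 had no ratio. The summed signal of the 5 was 340 for C mice and 488 for CMS mice, with Clec4f and Vsig4 as measured. In that sum Clec4f stood at 6.16 for C mice and 39.2 for CMS mice, and Vsig4 at 5.70 and 35.3. Of 10 hepatocyte markers, Alb, Ttr, Ahsg, Fgb, Hpx, Serpina1a, Apoa1, Ambp and Cps1 had log2 ratios from 2.26 to 3.53, each past 2-fold against 1.99% of all gene names. Tat, named after its value was seen, had a log2 ratio of 0.74, and the 10 genes had a summed signal of 9453 for C mice and 84069 for CMS mice. Their part in the microglia values was not tested.

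Of 10 markers of monocytes and neutrophils, 5 were well above background in both pools, of which 4 were higher by more than 1.2-fold, against 9.53% of all gene names, with a median log2 ratio of 0.58. A sixth, Ngp, named after its value was seen, passed through the CMS pool only, and with it at its bound the median was 0.63. The summed signal was 911 for C mice and 1625 for CMS mice. In that sum Ngp stood as measured, at 7.32 for C mice and 28.5 for CMS mice, and not at its bound. S100a9, a calcium-binding protein abundant in neutrophils, gave 371 for C mice and 843 for CMS mice, a log2 ratio of 1.18, and its partner S100a8 was at 0.82. The granule genes Camp and Lcn2 were at 0.58 and 0.15. Ccr2, the receptor that defines inflammatory monocytes, and Retnlg were not well above background in either pool, and Ly6c2 and Ly6g had no named probe. All 3 erythroid markers with a ratio, Hba-a1, Alas2 and Slc4a1, had log2 ratios from 0.41 to 0.62. Their summed signal was 19456 for C mice and 25811 for CMS mice, of which Hba-a1 alone gave 19004 and 25167, while Hbb-b1 had no named probe. Blood monocytes share some of the microglia genes, whose median was 0.04, and the part of blood in their values was not tested.

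Border-associated macrophages lie along vessels and in the meninges and are set apart by genes such as Mrc1. Of 11 markers, 10 had a ratio, with a median of -0.13, and their summed signal was 30127 for C mice and 27899 for CMS mice. Mgl2 alone gave 28004 and 25910 of it, and the other 9 genes 2123 and 1989. The lectin Mgl2 was at -0.11, the chemokine Pf4 at -0.19, the reductase Cbr2 at -0.15 and the scavenger receptor Stab1 at 0.06. Mrc1, named for its role after its value was seen, was at 0.11. Another 2 genes are named after their values were seen. Ms4a7 was lower by more than 1.2-fold, at -0.48, and Siglec1, not well above background for C mice, was at least 1.24-fold higher. Cd163 had no ratio. Of 6 lymphocyte markers, Cd4, Cd3e and Cd79a had a ratio, between -0.15 and 0.10. Their median was -0.08 and their summed signal 7601 for C mice and 7079 for CMS mice, of which Cd4 alone gave 6290 and 5678, and Cd3d, Cd8a and Ms4a1 had no ratio.

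Other genes known for homeostatic microglia stayed near 0 for the most part. All 22 of them were well above background in both pools, with a median log2 ratio of -0.0012. None passed 2-fold, against 2.58% of all gene names. Siglech, a lectin of microglia, gave 156486 for C mice and 164038 for CMS mice by its brightest probe, a log2 ratio of 0.07. Its other probe was far dimmer, at 944 and 1030, a log2 ratio of 0.13. The cytokine receptor gene Csf3r was at -0.02, the lysosomal protease Lgmn at 0.01 and Ctss, the microglial cathepsin S, at 0.11. Genes past 1.2-fold are named here after their values were seen. Ltc4s, the leukotriene C4 synthase, was lower at -0.30, and Cd53 (0.47), Cd33 (0.39), Pros1 (0.39) and P2ry13 (0.28) were higher. Cd53 and Cd33 were dim, with signals of 28.1 and 67.6 in the C pool, and P2ry13, a nucleotide receptor related to P2ry12, went from 351 to 425. Thus 4 of 22 were past 1.2-fold upward, against 9.53% of all gene names, and 1 downward, against 10%.

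Of 7 transcription factors of microglia, 5 had a ratio, with a median of 0.22 and a range from -0.10 to 0.30. Cebpb, a factor of macrophage activation, gave 739 for C mice and 912 for CMS mice, a log2 ratio of 0.30, and Cebpa, named after its value was seen, 163 and 198, a log2 ratio of 0.28. Those were the 2 of 5 genes past 1.2-fold, against 9.53% of all gene names, and both are also strongly expressed in liver. Mef2c, which cortical neurons express as well, was at 0.22 and Irf8, which microglia need to mature, at 0.05. The brightest Smad3 probe was at -0.10 and another at -0.64. Spi1 and Runx1 had no ratio.

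The ligands and partners of the 8 genes stood close to 0 as well. Of 13, 12 had a ratio, with a median of -0.02. None was past 1.2-fold, against 9.53% of all gene names higher and 10% lower. Cx3cl1, the fractalkine that neurons present to Cx3cr1, gave 55367 for C mice and 53051 for CMS mice, a log2 ratio of -0.06, opposite in sign to its receptor and within the SD between spots. The Csf1r ligands, named for their role after their values were seen, were at -0.06 for Il34 and -0.15 for the brightest probe of Csf1, with 0.24 for another Csf1 probe. Itgb2, the beta chain that pairs with Itgam, likewise named for its role, was at -0.04. Apoe and Clu, lipid carriers that Trem2 binds, were at 0.05 and -0.07, and Sirpa, the microglial receptor of the signal Cd47, at 0.01. Cd200r1 had no ratio, which for each gene named without one means that it was not well above background in either pool.

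Behind Tyrobp lie the kinase Syk, adaptors and phospholipase C. Of the 13 genes of that pathway, 12 had a ratio, with a median of -0.03. Blnk, an adaptor, was at 0.13, the receptor Trem1 at 0.15, the inositol phosphatase Inpp5d at 0.04 and Plcg2, a phospholipase, at -0.06. Btk, a kinase, was at 0.27 and Sirpb1a, not well above background in the CMS pool, at least 1.57-fold lower, both with signals under 100 and named after their values were seen. Card9 had no ratio.

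Complement and Fc receptor genes, which microglia use in engulfing synapses and debris, had a median of 0.06 over the 8 of 10 with a ratio. C1qa, C1qb and C1qc, the chains of the complement starter C1q, were at 0.08, -0.01 and 0.07, and Fcer1g, an adaptor related to Tyrobp, at 0.07. C1qa gave 1962 for C mice and 2079 for CMS mice. Fcgr1, named after its value was seen, was the 1 gene past 1.2-fold, lower at -0.30, against 10% of all gene names. C3ar1 and C5ar1 had no ratio.

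Genes that rise in microglia around amyloid plaques and dying cells had a median of -0.01 over 16 of 17. None passed 2-fold, against 2.58% of all gene names. Ctsb, Ctsd and Cd63, genes of lysosomes, were at 0.0028, 0.02 and -0.04. The genes past 1.2-fold, named after their values were seen, went both ways, 2 higher and 2 lower, against 9.53% and 10% of all gene names. Gpnmb was lower at -0.70, from 102 to 62.9, and Itgax, not well above background in the CMS pool, was 1.22-fold lower as measured. Lyz2, a lysozyme of macrophages and neutrophils, was higher at 0.30, and Igf1, which liver makes in large amounts, at 0.33 by its brightest probe and up to 1.81 by others of its 4 probes. Clec7a had no named probe.

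Of 16 genes of inflammatory activation, 11 had a ratio, with a median of -0.02, and Tnf, Il6, Il1a, Ccl4 and Cybb were not well above background in either pool. Nos2, the inducible nitric oxide synthase, was at -0.15, Ptgs2, a prostaglandin synthase that cortical neurons also express, at -0.02, Cd14 at -0.05 and the costimulatory Cd86 at 0.18. Another 3 genes, named after their values were seen, were past 1.2-fold. Of them 2 were higher and 1 lower, against 9.53% and 10% of all gene names. Nlrp3, of the inflammasome, was at 0.27 by its brightest probe and at -0.66 by another. Ccl3 was 1.79-fold higher and Tlr4 1.99-fold lower, each with 1 pool not well above background. Their dim signals lay just above the level used as a bound, so these folds are as measured and not minimums.

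**Figure D4:**
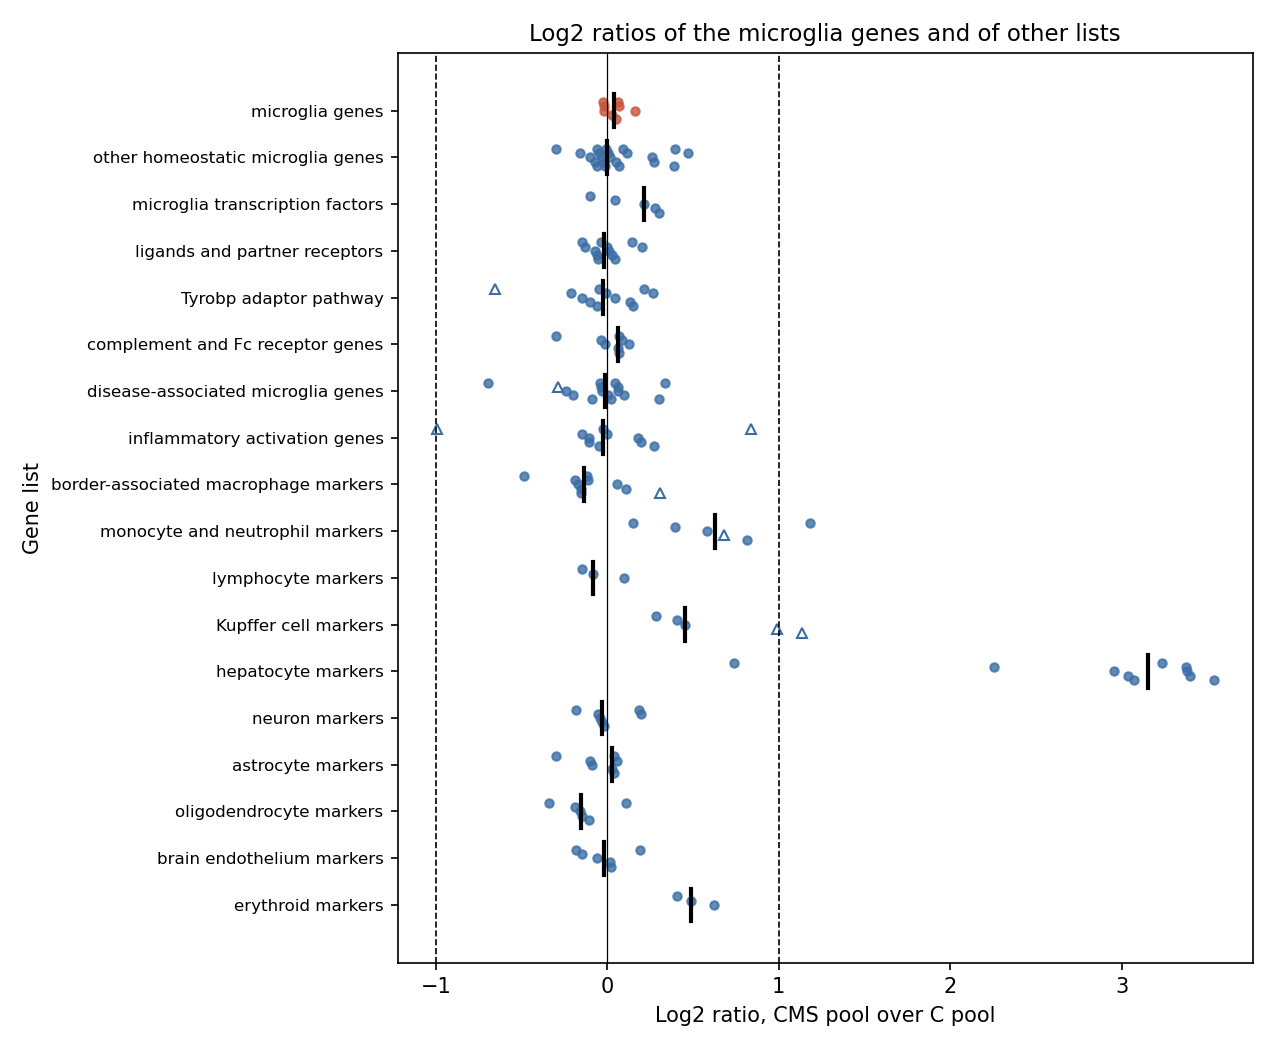
Log2 ratio (CMS pool over C pool) of each gene with a ratio in the microglia list (top row) and in 17 other lists. The black bar is the median of the list and dashed lines mark 2-fold. Open triangles are genes not well above background in 1 pool. They are lower bounds of the change except for Ccl3, Tlr4 and Itgax, which are as measured. The microglia genes lie between -0.02 and 0.16, and the lists whose median is above 0.4 are those of monocytes and neutrophils, Kupffer cells, hepatocytes and erythroid cells.

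Other brain cells give the frame for these values. The median log2 ratio was -0.03 for 7 neuron markers, 0.03 for 7 astrocyte markers, -0.15 for 6 oligodendrocyte markers and -0.02 for 6 endothelial markers. The median for the 8 microglia genes was 0.04, and with 1 pool per group the differences between these medians could not be tested.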

How the data were processed

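Each pool of PFC RNA was hybridized to 1 one-color array. The authors deposited processed signal intensities from Agilent Feature Extraction 10.10.1.1, background-subtracted and spatially detrended with default parameters and not scaled between arrays. They also deposited a table in which the intensities of an array are multiplied by a common factor, 1.80 for C and 2.05 for CMS. The median intensity in that table was 149 for C and 153 for CMS. Per the file headers the array was designed on mm9, and no coordinates of the arrays were used. The number of arrays limits the precision.

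Here control spots were dropped, as were spots marked as outliers, 130 of them for C and 133 for CMS. Spots of a probe were averaged and each array scaled to a mean of 2500, the average named in the study's methods. Where a probe was not well above background in a single pool, its signal there was raised to the lowest signal well above background if it was below that. Its fold is then a minimum. A dim signal above that level was left as measured. No ratio was taken where a probe was dim in both pools or the minimum was under 1. A gene was represented by its probe of highest mean log2 signal, called the brightest. Other probes are given for the microglia genes and for some genes of the other lists. Accessions without versions were named through the RefSeq table of GRCm38.p6, for 30740 of 59305 spots. The other entries, without a symbol, counted as gene names of their own in the shares of all gene names.

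The genes and lists were chosen with earlier results of these data known. From each list the text names genes past 2-fold and the 4 brightest, with others marked as named for their role or after their values were seen, genes without a ratio are listed, and neuron, astrocyte, oligodendrocyte and endothelial markers are summarised. Some genes of the lists are not reported here, and the list values leave them out. Apoe and Itgb2 stood in 2 lists each. The calling of ratios past 2-fold was tested on simulated data, with large changes in genes well above background on both arrays. The simulation did not cover bounds, changes of dim probes or the 1.2-fold counts. The 12 alternatives were scaling by the 75th percentile, by the median or by a mean without the lowest and highest 2%, no scaling, quantile normalization, normexp with an offset of 50 on median spot intensities (the files hold no mean intensities) with quantile normalization, the deposited table, no bound, only probes above background on both arrays, no filter, outliers kept and the mean of all probes. Python 3.11.15, numpy 2.4.6, pandas 2.3.3, R 4.3.3 and limma 3.58.1 were used.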

Additional observations from a re-analysis of the deposited data

How the results depend on the processing

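No paired analysis was possible because 1 pool was measured for each treatment, and for that reason no replicate could be left out and no block fitted. Under the 12 alternatives the number of microglia genes past 2-fold or past 1.2-fold stayed at 0. Of the 8 genes' values, 88 moved by less than the SD of 0.13 between spots and 8 by more, all with no scaling. Many of the 88 could not move, since settings for dim probes do not reach these genes. Of 216 list medians, 22 moved by more than 0.13, a spread of single probes and not of medians. With scaling, the median of the 8 genes lay between 0.01 and 0.06. Signal over background limits the dim probes, such as the third Itgam probe.

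Leaving out the scaling shifts every ratio by construction. It put P2ry12 at -0.11, Tmem119 at -0.19, Cx3cr1 at -0.012, Csf1r at -0.12, Aif1 at -0.19, Itgam at -0.11, Trem2 at -0.15 and Tyrobp at -0.20, with a median of -0.13. The list medians were then -0.17 for other homeostatic microglia genes, 0.043 for transcription factors, -0.19 for ligands and partner receptors, -0.20 for the Tyrobp pathway, -0.11 for complement and Fc receptor genes, -0.19 for disease-associated genes, -0.20 for inflammatory genes, -0.31 for border-associated macrophages, 0.46 for monocytes and neutrophils, -0.26 for lymphocytes, 0.28 for Kupffer cells, 2.98 for hepatocytes, -0.21 for neurons, -0.15 for astrocytes, -0.33 for oligodendrocytes, -0.19 for endothelium and 0.31 for erythroid cells. Under normexp with quantile normalization the medians were 0.40 for monocytes and neutrophils, 0.23 for Kupffer cells and 2.98 for hepatocytes, and with no filter the Kupffer cell median was 0.64. The cause of the latter moves was not tested. Over all gene names, the 699 past 2-fold became 303 under normexp, 1090 with no bound, 338 where both pools had to be above background and 2562 with no filter, and the share of them that was higher, 77.1%, was 62.9% with no scaling, 87.5% under normexp, 87.0% where both pools had to be above background and 58.3% with no filter.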
